A study of Mus musculus with 4 samples.

Results

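LTN1, NEMF, TTC3 and GTPBP1 are proteins that meet stalled ribosomes, and the translation starts of their 4 genes were followed here in mouse neurons with and without LTN1. The genes were chosen by name: the rows whose symbols are Ltn1, Nemf, Ttc3 and Gtpbp1 gave 4 transcripts of the 6352 in the table. The table holds ribosome footprints at translation initiation sites in primary cultured cortical neurons, all treated with harringtonine (5 µg/ml, 3 min), a drug that holds ribosomes at start codons. Of the 4 libraries, 2 came from wild-type (WT) neurons and 2 from Ltn1 knockout (KO) neurons, and each genotype had 1 library with scrambled RNAi and 1 with Ttc3 RNAi. There was thus 1 library per condition and no replicate, so an interval or p-value covers counting error between libraries and says nothing of the spread between cultures or animals. The KO was made in whole mice, and the segment of Ltn1 that was deleted is not given in the sources used here.

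Titles and characteristics give scrambled RNAi for the libraries whose codes end in TTC and Ttc3 RNAi for those whose codes end in SC, which is the reverse of what those letters appear to stand for. Libraries are named here by genotype and by these letters, as WT SC and KO SC or as WT TTC and KO TTC. The targeted genes did not settle this. Ttc3 had 3 reads in WT SC and 2 reads in KO SC, the libraries labelled Ttc3 RNAi, and 0 reads in WT TTC and KO TTC, the libraries labelled scrambled RNAi, which goes against the titles. Ltn1 had 37 reads in KO SC and 0 reads in KO TTC, so the libraries labelled Ltn1 KO differed from each other at the Ltn1 start site. A start-site footprint can come from a transcript that is cut short further downstream, and the position counted for each row is not given in the sources used here, so neither gene is a check on the knockout or the knockdown at the protein level.

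When a ribosome stalls and is hit by the next, the collision is sensed by ubiquitin ligases that mark the 40S subunit, and splitting factors then part the subunits. A peptide still joined to its tRNA stays on the 60S subunit. NEMF binds that 60S subunit, recruits LTN1 and can add a tail to the carboxyl end of the peptide. LTN1, also called Listerin, is the ubiquitin ligase that tags the peptide, and the ATPase VCP with its cofactors pulls it out for the proteasome. GTPBP1 is a GTPase related to the rescue factor HBS1L. TTC3 is a ubiquitin ligase with tetratricopeptide repeats, and its human gene lies in the Down syndrome region. Loss of this pathway harms neurons in mice, and mutations of the human NEMF gene cause neuromuscular disease.

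On GRCm38.p6, the build of the files, Ltn1 (ENSMUST00000039449.8) lies at chr16:87376651-87432619 on the minus strand. Nemf (ENSMUST00000021368.9) lies at chr12:69311541-69357201, also on the minus strand. Ttc3 (ENSMUST00000117648.8) lies at chr16:94370625-94469222 on the plus strand, 6.94 Mb from Ltn1. Gtpbp1 (ENSMUST00000046463.9) lies at chr15:79690001-79721479 on the plus strand. The 5′ ends of the genes, where the scanning ribosome is loaded, are given from RefSeq in the direction of transcription, with capitals from the annotated transcription start onward:
Ltn1, chr16:87432592-87432621, minus strand: gggaggcgggagcggAAGTAGGAAGCCGAA
Nemf, chr12:69357162-69357191, minus strand: caagcgctcatgcgcAGAAGCATAGTGGTC
Gtpbp1, chr15:79690881-79690910, plus strand: ctgcgaattagcttaAGTTCTTAAAGATGG
Ttc3, chr16:94370724-94370753, plus strand: cgactgcgcatgcgcACCCTAAGCCACGTG
None of the 4 annotated starts begins with a C followed by 4 pyrimidines (C or T), the terminal oligopyrimidine start that marks many mRNAs of the translation machinery. Such a start was present at 2.51% of the 32851 annotated starts and at 13 of 73 starts (17.8%) of cytosolic ribosomal protein genes. Most starts of that class thus also lacked it at the annotated base, so this match cannot show that the 4 genes lack such a start. These starts are annotated, can lie inside a gene's outer bounds, and were not measured in these neurons.

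Start-site footprints of all 4 genes were few. Over the 4 libraries Ltn1 had 49 reads, Nemf 38, Gtpbp1 31 and Ttc3 5. The mean was 4.995 RPM (reads per 1000000 reads of the whole library) for Ltn1, 3.56 for Nemf, 3.09 for Gtpbp1 and 0.545 for Ttc3. None of the 4 reached a mean of 5 RPM, which 2314 of the 6352 transcripts did. The median transcript had 11 reads in KO TTC, 7 in KO SC, 6 in WT SC and 4 in WT TTC, so Ltn1, Nemf and Gtpbp1 stood near the middle of the table and Ttc3 near its bottom. Of the 16 values of the 4 genes, 5 were 0. A count of 0 allows up to 3 reads, which is 0.821 RPM for KO TTC and 1.12 RPM for KO SC, against 1.43 RPM for WT SC and 2.05 RPM for WT TTC.

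Ltn1 varied most. Its level was 4.77 RPM in WT SC (10 reads, 95% exact Poisson interval 2.29 to 8.77), 1.37 in WT TTC (2 reads, 0.166 to 4.95), 13.8 in KO SC (37 reads, 9.75 to 19.1) and 0 in KO TTC (0 reads, upper bound 1.01). The order was thus KO SC, WT SC, WT TTC, KO TTC. The KO SC interval overlapped no other, and it was the highest value of any of the 4 genes, above 85.5% of the transcripts in that library. The intervals of WT SC and WT TTC overlapped, as did those of WT TTC and KO TTC. KO SC held 69.3% of Ltn1's summed RPM, an unevenness that 7 of 803 transcripts (0.872%) with a read total within 25% of its own reached or passed, itself included.

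Nemf, the partner that brings LTN1 to the 60S subunit, was present in 3 libraries at similar levels. It stood at 5.25 RPM in WT SC (11 reads, 2.62 to 9.39), 0 in WT TTC (0 reads, upper bound 2.53), 5.99 in KO SC (16 reads, 3.42 to 9.72) and 3.01 in KO TTC (11 reads, 1.50 to 5.38). The order was KO SC, WT SC, KO TTC, WT TTC, and each interval overlapped that of its neighbour in this order. The interval of WT TTC, the library with the fewest reads, overlapped that of KO TTC but neither of the SC libraries.

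Gtpbp1 was at 0 in the library in which Ltn1 was highest. Its level was 3.34 RPM in WT SC (7 reads, 1.34 to 6.88), 4.11 in WT TTC (6 reads, 1.51 to 8.94), 0 in KO SC (0 reads, upper bound 1.38) and 4.92 in KO TTC (18 reads, 2.92 to 7.78). The 3 libraries with reads had overlapping intervals and could not be ordered by counting error. The intervals of WT TTC and KO TTC lay wholly above that of KO SC, and that of WT SC overlapped it narrowly.

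Ttc3 was at or under the floor everywhere. Its level was 1.43 RPM in WT SC (3 reads, 0.295 to 4.18), 0 in WT TTC (0 reads, upper bound 2.53), 0.748 in KO SC (2 reads, 0.0906 to 2.70) and 0 in KO TTC (0 reads, upper bound 1.01). All 4 intervals overlapped, so no order of the libraries was detectable for this gene at this depth. Neurons are described by the study as making mainly a shortened TTC3 that begins at an internal methionine, and whether the row counts that start or the upstream one is not given in the sources used here.

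**Figure D1:**
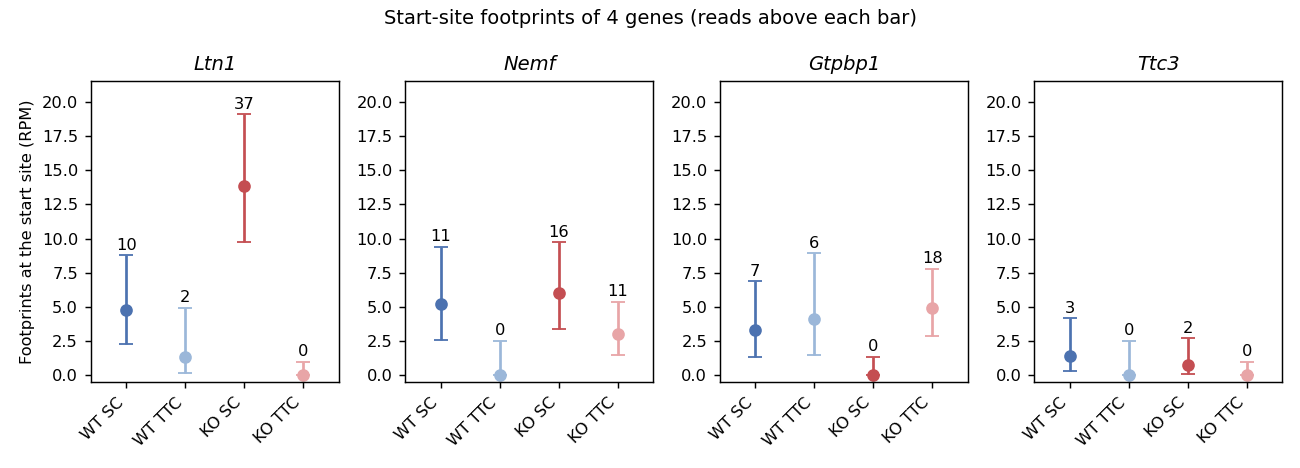
Footprints at the start site in RPM (y axis, linear, the same scale in each panel) of Ltn1, Nemf, Gtpbp1 and Ttc3 in the 4 libraries (x axis). Points are the single library's value, bars are 95% exact Poisson intervals, and numbers above the bars are reads. Ltn1 stands at 13.8 RPM in KO SC and at 0 in KO TTC, Gtpbp1 has its only 0 in KO SC, Nemf its only 0 in WT TTC, and Ttc3 stays at 3 reads or fewer.

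The first question was whether start-site footprints differed between Ltn1 KO and WT neurons under the same RNAi. A transcript was called when its RPM + 1 differed at least 2-fold and its adjusted p was below 0.05 (exact binomial test of the reads given their sum, two-sided, with Benjamini-Hochberg adjustment over all transcripts tested), a test that compares 2 libraries and not 2 genotypes. For transcripts with at least 20 reads in a pair, the mean Pearson statistic against equal RPM is about 1 under counting error alone. It was 3.28 in the SC pair, 3.17 in the TTC pair, 5.12 between the KO libraries and 4.15 between the WT libraries. The libraries thus differed by more than counting error, from a cause that was not tested, and calls with an adjusted p near 0.05 are weak. In the SC pair, labelled Ttc3 RNAi, 5.55% of the 5355 transcripts tested were called, and 2 of the 4 genes were. Ltn1 had more footprints in KO SC, with 37 reads against 10 in WT SC (ratio of RPM 2.90, exact 95% interval 1.41 to 6.54, log2 difference of RPM + 1 1.36, adjusted p = 0.0300, exact test). Gtpbp1 was lower in KO SC, with 0 reads against 7, which makes it at least 1.84-fold lower by the exact 95% limit, with WT SC 2.98-fold above the floor of 3 reads in KO SC (log2 difference of RPM + 1 -2.12, adjusted p = 0.0455, exact test). This call for Gtpbp1 ended when the libraries were scaled to the same sum over the listed sites (log2 -2.13, adjusted p = 0.0547, exact test) or with TMM factors (log2 -2.11, adjusted p = 0.0581, exact test), with the difference about as large. Nemf had 16 reads in KO SC and 11 in WT SC, a ratio of 1.14 whose interval ran from 0.497 to 2.72 (adjusted p = 1, exact test). Ttc3 had 2 reads against 3, both at or under the floor, so no fold is given (adjusted p = 0.913, exact test).

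In the TTC pair, labelled scrambled RNAi, 5.56% of 5448 transcripts were called, and none of the 4 genes was by this exact test, although Nemf had an unadjusted p below 0.05. Nemf had 11 reads in KO TTC and 0 in WT TTC, 1.46-fold above the floor of WT TTC, with an exact 95% lower limit of the ratio of 1.003 (unadjusted p = 0.0411, adjusted p = 0.231, exact test). Gtpbp1 had 18 reads against 6, and the ratio of RPM was 1.20 with an interval from 0.456 to 3.69 (adjusted p = 1, exact test). Ltn1 had 0 reads in KO TTC and 2 in WT TTC, both under the floor (adjusted p = 0.335, exact test), and Ttc3 had 0 reads in both and could not be tested.

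The KO over WT difference of Ltn1 therefore had a log2 of 1.36 in the SC pair, with 2 reads or fewer in both libraries of the TTC pair. That of Gtpbp1 was at least 1.84-fold lower in the SC pair by the exact 95% limit and 1.20 in ratio in the TTC pair. The difference between the pairs was tested itself, with an exact conditional test on the reads of all 4 libraries, which called 3.96% of 4642 transcripts. None of the 4 genes was called. Ltn1 had an unadjusted p of 0.0188 and an adjusted p of 0.194 in this exact test, Gtpbp1 0.00862 and 0.125, and Nemf 0.0918 and 0.441. Ttc3 gave no informative counts.

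The second question was how the SC and TTC libraries, labelled Ttc3 RNAi and scrambled RNAi, differed within a genotype. These comparisons use the same 4 libraries as those between genotypes, so the calls are not independent of them. In KO neurons 12% of 5623 transcripts were called, and 2 of the 4 genes were among them, in opposite directions. Ltn1 was at least 13.0-fold higher in KO SC than in KO TTC by the exact 95% limit, and 16.9-fold above the floor of 3 reads, with 37 reads against 0 (log2 difference of RPM + 1 3.89, adjusted p = 5.30e-12, exact test), and its log2 difference was matched or passed by 3 transcripts of the 6352, itself included. Gtpbp1 was at least 3.21-fold lower in KO SC by the exact 95% limit, with 0 reads against 18, which stood 4.39-fold above the floor of KO SC (adjusted p = 0.000967, exact test). Nemf had 16 reads against 11 (ratio 1.99, interval 0.867 to 4.74, adjusted p = 0.249, exact test) and Ttc3 had 2 against 0 (adjusted p = 0.409, exact test).

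In WT neurons 8.85% of 5345 transcripts were called, and Nemf was the one of the 4 genes among them. It had 11 reads in WT SC and 0 in WT TTC, at least 1.75-fold higher by the exact 95% limit and 2.55-fold above the floor of WT TTC (adjusted p = 0.0409, exact test). Ltn1 had 10 reads against 2, a ratio of 3.48 with an interval from 0.742 to 32.7 (adjusted p = 0.423, exact test). Gtpbp1 had 7 reads against 6, a ratio of 0.813 with an interval from 0.234 to 2.93 (adjusted p = 0.971, exact test). Ttc3 had 3 reads against 0 (adjusted p = 0.581, exact test). By value alone, Ltn1, Nemf and Ttc3 were higher in SC and Gtpbp1 lower in both genotypes, but of these 8 differences 3 passed the test. The others, among them those of Ttc3 and that of Gtpbp1 in WT, had no detectable direction. With the codes read as they are spelled, every direction is the reverse in terms of RNAi.

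**Figure D2:**
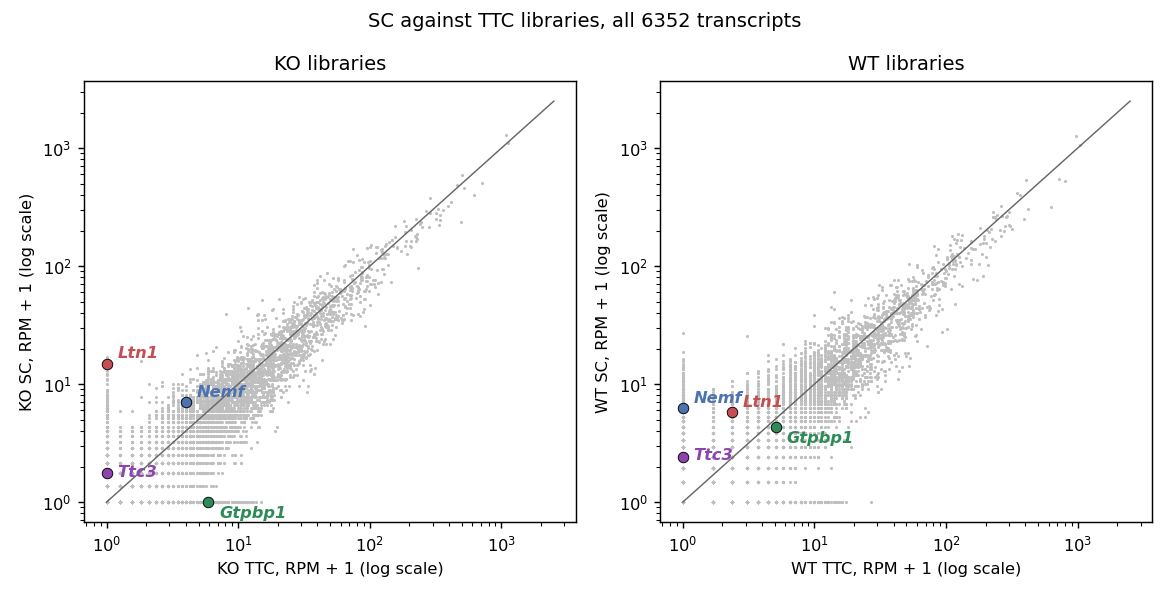
RPM + 1 in the SC library (y axis, log scale) against RPM + 1 in the TTC library (x axis, log scale) for all 6352 transcripts (grey points), in KO (left) and WT (right), with equality as a line and the 4 genes in colour. In KO, Ltn1 is at 13.8 RPM in SC with 0 in TTC and Gtpbp1 lies on the lower edge with 0 in SC, while in WT Nemf lies on the left edge with 0 in TTC.

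When the reads of the libraries of a code were summed over genotypes, Ltn1 had 47 reads in SC and 2 in TTC, Nemf 27 and 11, Ttc3 5 and 0, and Gtpbp1 7 and 24. Summed by genotype, the KO and WT libraries had 37 and 12 reads of Ltn1, 27 and 11 of Nemf, 2 and 3 of Ttc3, and 18 and 13 of Gtpbp1. The exact interval of the ratio included 1 for each of the 4 genes between KO and WT. Between SC and TTC it lay above 1 for Ltn1 (6.60 to 214) and Nemf (1.26 to 5.88), below 1 for Gtpbp1 (0.114 to 0.748), and reached just below 1 for Ttc3 (lower bound 0.983). These sums give most weight to the deepest library and, for Ltn1, rest on KO SC.

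An additive fit in limma of genotype and code to log2(RPM + 1) of the 4 libraries, with 1 residual degree of freedom, called 1.07% of 5955 transcripts by genotype. None of the 4 genes was among them, with log2 differences (KO minus WT) of 0.06 for Ltn1 (SE 0.64, adjusted p = 0.990, limma), 1.08 for Nemf (SE 0.65, adjusted p = 0.645), -0.24 for Ttc3 (SE 0.70, adjusted p = 0.962) and -0.95 for Gtpbp1 (SE 0.67, adjusted p = 0.746). For Ltn1 this fit averages a log2 difference of 1.36 in the SC pair with one of -1.24 in the TTC pair. The SEs and p-values of the limma fit are moderated, with variance borrowed from the other transcripts. They do not measure a gene's own spread. By code the fit called 4.8% of transcripts, and Ltn1 was called with a log2 difference (SC minus TTC) of 2.59 (SE 0.64, adjusted p = 0.00294, limma). This call was lost with a pseudocount of 0.1 RPM (log2 4.43, adjusted p = 0.395, limma) and when the recovered reads were fitted in edgeR (log2 4.24, adjusted p = 0.394 with library totals and log2 4.38, adjusted p = 0.467 with TMM factors), although the fitted difference was larger in all 3. Nemf, at 1.72 (adjusted p = 0.111), Ttc3, at 1.04 (adjusted p = 0.492), and Gtpbp1, at -1.40 (adjusted p = 0.264), were not called by code in limma.

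A count of 0 in 1 library beside a clear count in another was not confined to the 4 genes, which were set against the whole table. Of the 3703 transcripts with at least 20 reads in all, 442 (11.9%) had 0 reads in at least 1 library. Ltn1, Nemf and Gtpbp1, the genes of the 4 with at least 20 reads, each had such a library, and of 20 other measured genes of the pathway with at least 20 reads 1 did (Rnf25, at 0 in both WT libraries and named after its values were seen). For Nemf the combination was shared by a small part: 106 of 2387 transcripts (4.44%) with at least 11 reads in WT SC were at 0 in WT TTC. For Gtpbp1 it was 85 of 2478 transcripts (3.43%) with at least 18 reads in KO TTC that were at 0 in KO SC. For Ltn1 it was rare: of 918 transcripts with at least 37 reads in KO SC, 3 (0.327%) had none in KO TTC. Those 3 were Ltn1, Nsun4, a mitochondrial RNA methyltransferase, with 43 reads in KO SC and 20 in WT SC, and Atf6, a sensor of endoplasmic reticulum stress, with 42 and 37. Atf6 and Nsun4 had 0 reads in both TTC libraries. Atf6 was named after its values were seen.

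Transcripts that were seen in the SC libraries and nearly missing from the TTC libraries formed a small group. At most 2 reads in the TTC libraries together was the case for 46 of the 3703 transcripts (1.24%), Ltn1 among them, and at most 2 reads in the SC libraries together for 77 (2.08%). A 0 in KO SC alone, the pattern of Gtpbp1, was found in 43 transcripts (1.16%), and a 0 in WT TTC alone, the pattern of Nemf, in 139 (3.75%).

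The transcripts most like each gene were found by the distance between profiles, where a profile is the share of summed RPM in each library and the distance is the share that would have to be moved (0 for equal profiles). Among 3702 transcripts with at least 20 reads, those nearest to Ltn1 were Mob1a, a regulator of Hippo signalling (distance 0.0716), Coch, a secreted protein best known from the inner ear (0.115), and Nsun4 (0.134). All 3 had 0 reads in both TTC libraries, where Ltn1 kept 2 reads in WT TTC. Nemf was closest to Mrpl44, a protein of the mitochondrial ribosome (0.0153), Sdc2, a cell-surface proteoglycan (0.0191), and Fam45a (0.0217). Gtpbp1 was closest to ENSMUST00000030317.13, listed under the symbol Pdpm (0.00503), Hmgcll1, an enzyme of ketone body synthesis (0.0251), and Ing1, a chromatin reader (0.0271). The neighbours of Nemf were each at 0 in WT TTC and those of Gtpbp1 in KO SC, as the genes themselves were. This likeness follows from how the neighbours were chosen and is no separate result.

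**Figure D3:**
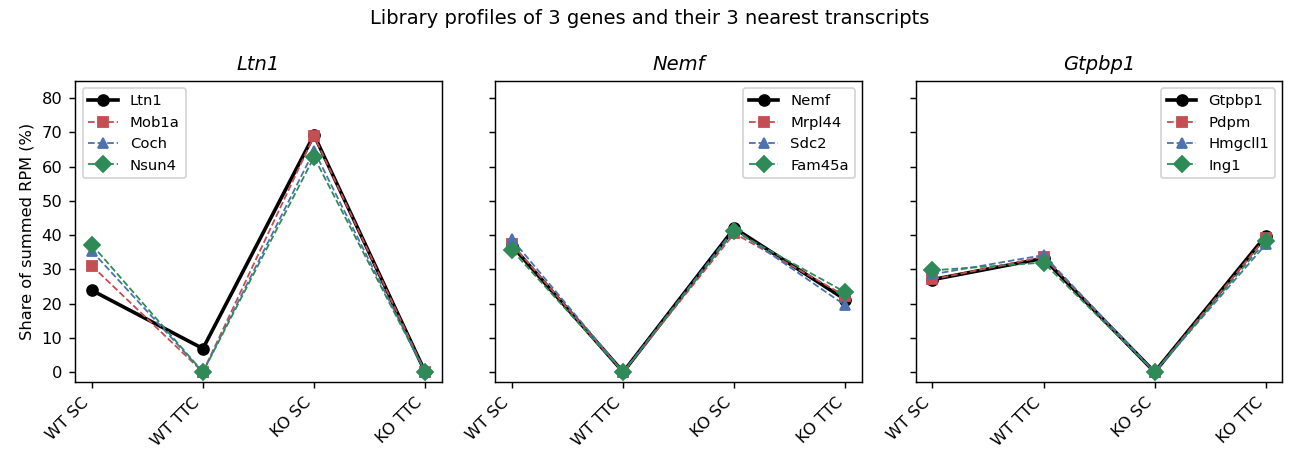
Share of summed RPM (y axis, percent) in each library (x axis) for Ltn1, Nemf and Gtpbp1 (black) and the 3 transcripts nearest to each (coloured, dashed lines that join the libraries of 1 transcript and mark no order). Ltn1 and its neighbours peak in KO SC, where Ltn1 holds 69.3% of its sum, while Nemf and its neighbours have 0 in WT TTC and their lowest share of the other 3 libraries in KO TTC, and Gtpbp1 and its neighbours have 0 in KO SC. The neighbours were chosen by these same shares.

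Genes beside Ltn1 on chromosome 16 were examined because a targeted allele sits in this region. Of 65 protein-coding genes with a start within 2 Mb of that of Ltn1, 2 were in the table. N6amt1, a methyltransferase that acts on the termination factor eRF1, lies at chr16:87354185-87368649, 8002 bases from the 3′ end of Ltn1. It had 23 reads (11.0 RPM) in WT SC and 15 reads (5.61 RPM) in KO SC, and 0 reads in each TTC library. The nearest measured gene was thus seen in both SC libraries and in neither TTC library, whereas Ltn1 had 2 reads in WT TTC. N6amt1 was called in both comparisons of code (adjusted p = 7.52e-05 in KO and 0.000259 in WT, exact test). In the SC pair it was lower in KO, the opposite sign to Ltn1, and was not called (log2 -0.86, adjusted p = 0.250, exact test). Cct8, a subunit of the TRiC chaperonin at chr16:87483325-87495869, had 72 to 134 reads, or 35.6 to 53.4 RPM, and was not called in any of the 4 comparisons, with its smallest adjusted p (0.0402, exact test) at a log2 difference of 0.48 between KO SC and KO TTC.

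The rest of the pathway was read from 4 lists (47 symbols, of which 32 were in the table, the members Ltn1, Nemf and Gtpbp1 included), drawn up with earlier results of these data known. Apart from those members, 29 genes were measured. Between KO and WT in the SC pair 11 of the 29 were higher and 15 lower, and 2 were called, both lower, with a median log2 difference of -0.16 against 0 for all transcripts. Of all transcripts 38.0% were higher and 46.3% lower in this pair, and the calls stand beside the 5.55% called over all tested. Those 2, named after their values were seen, were Cnot4, a ubiquitin ligase of the CCR4-NOT complex (22 reads in WT SC, 8 in KO SC, log2 -1.53, adjusted p = 0.0256, exact test), and Nploc4, a VCP cofactor (24 and 11 reads, log2 -1.28, adjusted p = 0.0495, exact test). In the TTC pair 14 were higher and 12 lower (43.7% and 42.1% of all transcripts), with none called by the exact test against 5.56% of all tested. Between SC and TTC in KO 13 were higher and 13 lower, with 1 call each way, Usp10, a deubiquitinase of the 40S subunit (7 and 0 reads, higher), and Eif4e2, a cap-binding repressor (13 and 49 reads, lower), both named after their values were seen. Among all transcripts 37.1% were higher and 51.5% lower between these libraries and 12% of those tested were called, a larger share than of the 29. In WT 11 were higher and 14 lower (40.9% and 43.3% of all transcripts, with 8.85% of those tested called), and Nploc4 was called higher in SC (24 and 3 reads).

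Among the sensors that mark the 40S subunit, 14 of 22 genes were in the table. The most read were Rps3, a 40S protein, Rack1, a 40S scaffold at the collision interface, Rps2, and Rnf14, a ubiquitin ligase. Rps2 is a 40S protein that the study describes as ubiquitinated when initiation is inhibited. Rps3 ranged from 39.1 to 67.0 RPM, Rack1 from 23.9 to 55.0, Rps2 from 16.4 to 30.4 and Rnf14 from 9.35 to 13.8, and none of these 4 was called in any comparison. Rps3 (log2 0.76 in the SC pair, adjusted p = 0.00201, exact test), Rack1 (log2 -0.98 between the WT libraries, adjusted p = 0.00402, and -0.62 between the KO libraries, adjusted p = 0.00498) and Rps2 (log2 -0.81 between the KO libraries, adjusted p = 0.00704) passed the exact test without reaching 2-fold. Zfp598, the main collision sensor, was not analysed here.

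Of 9 splitting and rescue genes 6 were in the table. Gtpbp1 was the one of these 6 called in any comparison, in the SC pair and between the KO libraries. Of all transcripts tested 5.55% and 12% were called there, with 5.56% in the TTC pair and 8.85% between the WT libraries. Gtpbp2, the close relative of Gtpbp1, kept 4.49 to 11.0 RPM. Ascc1, of the complex that splits stalled ribosomes, kept 4.12 to 7.93, and Abce1, the recycling ATPase, 2.19 to 4.79. In KO SC, where Gtpbp1 was at 0, Gtpbp2 had 12 reads, its lowest level of the 4 libraries, and its difference from WT SC was not called (log2 -0.48, adjusted p = 0.689, exact test).

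Of the 11 genes of the 60S complex and of extraction, 9 were in the table. Tcf25, the third protein of the LTN1 and NEMF complex, ranged from 50.7 to 77.1 RPM, Klhdc10, a receptor of a ligase that tags the same peptides without LTN1, from 37.0 to 42.6, Vcp from 24.6 to 47.2 and Ufd1, a VCP cofactor, from 8.23 to 11.6. None of these 4 was called in any of the 4 comparisons, though Vcp passed the exact test below 2-fold, lower in KO TTC than in WT TTC (log2 -0.91, adjusted p = 0.00276) and lower in WT SC than in WT TTC (log2 -0.82, adjusted p = 0.0178). Of 5 no-go decay genes 3 were in the table, Wdr61 and Skiv2l of the SKI complex and the exonuclease Xrn1, with 23, 15 and 6 reads and no call.

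**Figure D4:**
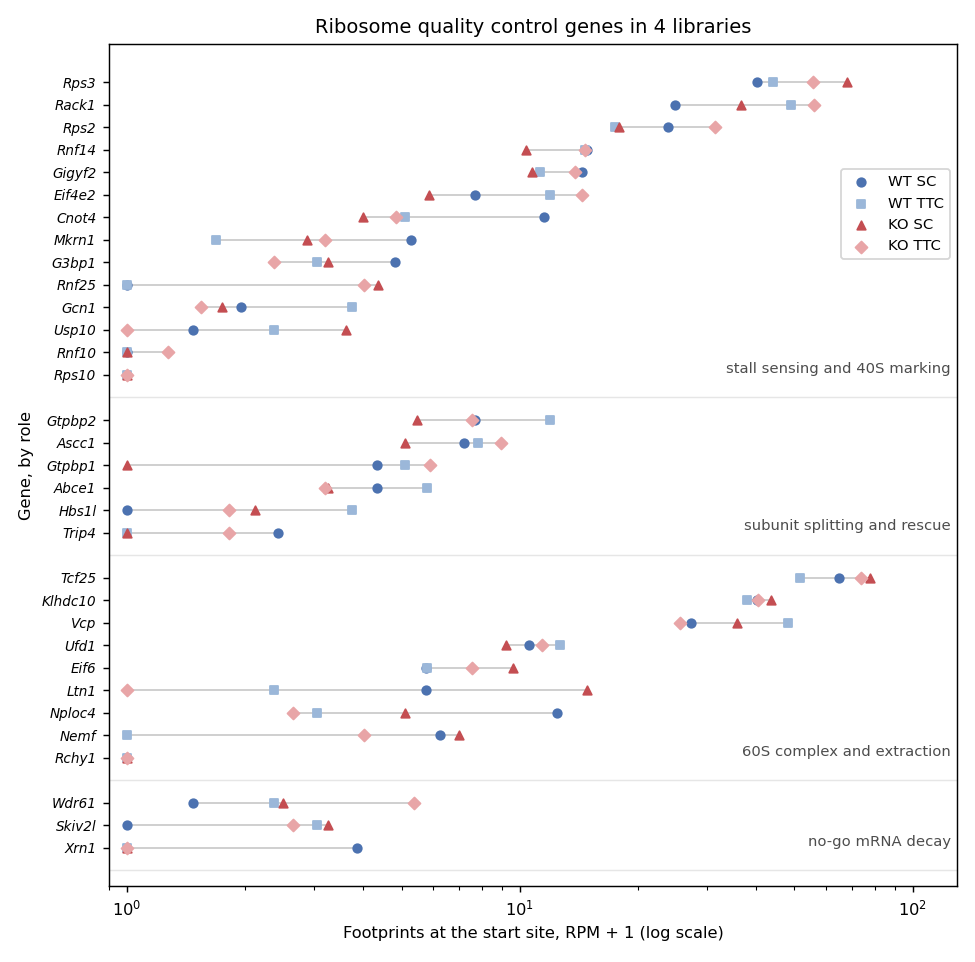
RPM + 1 at the start site (x axis, log scale) of the 32 listed genes of ribosome quality control (y axis, grouped by role), with a symbol for each library and a grey line from the lowest to the highest value. Ltn1, Nemf and Gtpbp1 run down to 0 RPM in at least 1 library, as do the less-read Rnf25, Usp10, Rnf10, Rps10, Hbs1l, Trip4, Rchy1, Skiv2l and Xrn1, while Rps3, Rack1, Tcf25, Klhdc10 and Vcp stay above 20 RPM in all 4.

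Of 9 genes listed as partners or substrates of TTC3, 7 were in the table. Rack1 is given above. Rhoa, a small GTPase, ranged from 29.6 to 46.0 RPM and was not called, and the poly(A)-binding protein Pabpc1 from 5.61 to 16.4. Between KO SC and KO TTC 4 of the 7 were lower in SC, with Pabpc1 called (15 and 46 reads, log2 -1.04, adjusted p = 0.0402, exact test). Of all transcripts 51.5% were lower between these libraries, and 12% of those tested were called. Of the UFMylation genes, which act on 60S subunits stalled at the endoplasmic reticulum, 7 of 10 were in the table. Their summed level was 4.11 RPM in WT TTC and 24.7 to 32.4 RPM in the other 3 libraries, lowest in the library in which Nemf was at 0. Of the 4 most read, Ufsp2, a UFM1 protease, and Cdk5rap3, a part of the UFM1 ligase complex, were called in the TTC pair. Both were higher in KO and had 0 reads in WT TTC, the library with the fewest reads. In this pair 5.56% of all transcripts tested were called. Ufc1, the UFM1-conjugating enzyme, and Ufsp2 were called higher in WT SC than in WT TTC, where 8.85% of those tested were called. Between the KO libraries Ufc1 was called higher in SC and Ddrgk1, another part of the ligase complex, lower, beside 12% called of all transcripts tested.

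The libraries held between 1460425 reads (WT TTC) and 3655827 reads (KO TTC), with 2673112 in KO SC and 2096153 in WT SC, and the listed sites took 6.06% to 6.85% of each. All 10 neuron markers were measured, with a sum between 1628 and 1901 RPM. Astrocyte markers (7 of 8 measured) summed to 113 to 229 RPM and oligodendrocyte lineage markers (7 of 10) to 11.97 to 67.79 RPM, both lowest in KO SC, where the markers at 0 reads included Aqp4, Mbp and Cspg4. The marker lists of microglia and of endothelial cells and fibroblasts had no member in the table. KO SC is the library with the highest Ltn1 and the lowest Gtpbp1, and the part of these markers in those results was not tested. In bulk samples such as these, fewer cells of a type and less translation per cell cannot be told apart, nor can a change in mRNA from a change in initiation.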

How the data were processed

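The authors sequenced ribosome footprints of harringtonine-treated neurons and deposited RPM per transcript. Submitters' processing notes name Bowtie, SAMtools, bedtools and GRCm38/mm10, and the counted window and annotation are not given in the sources used here. Dividing by the RPM of 1 read gave whole reads for all values (tolerance 1e-06), and these reads were used for counting error. Symbols came from the study's list by transcript identifier (38 identifiers with an extra zero were mended), and coordinates and 5′ ends from RefSeq GRCm38.p6. Intervals are 95% exact Poisson or Clopper-Pearson (scipy 1.17.1) and, like floors, cover counting error only, as reads carry no molecular identifiers. Pairs of libraries were compared by exact tests on reads, and all 4 by limma 3.58.1 with edgeR 4.0.16 as an alternative, each over all transcripts and tested on simulated data. Scaling, pseudocount, a filter at a mean of 5 RPM and exchanged RNAi labels were the alternatives. The 4 genes, the lists and the tests were chosen with earlier results of these data known. Genes were named by rule: the 4 genes, up to 4 most-read genes per list, 3 nearest profiles per gene and every measured gene within 2 Mb of Ltn1, with exceptions stated; some listed genes are not reported here.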

Additional observations from a re-analysis of the deposited data

How the results depend on the processing

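Depth was the main limit: the 4 genes had 49, 38, 31 and 5 reads, 1 library stood for each condition, and no replicate could be left out. No analysis paired by replicate was possible because each condition had 1 library. Of 80 values of the 4 genes under alternatives, 72 stayed on their side of the threshold, 5 lost their call and 3 called values turned. Some of the 72 could not have changed, so this count is no measure of stability. In the exact tests of pairs a pseudocount of 0.1 RPM leaves p and the sign as they are, and the exchange of RNAi labels leaves p. The 3 that turned were those with the RNAi labels exchanged as the codes spell them, which turns every difference of code. Their log2 differences were then -3.89 for Ltn1 and 2.57 for Gtpbp1 in KO and -2.64 for Nemf in WT. Apart from that exchange 68 of 69 log2 values kept their sign, the other being that of Ltn1 by genotype in limma (0.06, and -1.18 with a pseudocount of 0.1 RPM, not called in either). With a mean of at least 5 RPM, which none of the 4 genes reached, calls fell to 137 in the SC pair, 129 in the TTC pair, 276 between the KO libraries and 255 between the WT libraries, from 297, 303, 674 and 473, with fewer transcripts tested. The additive fit called 64 transcripts by genotype in limma with 1 RPM as pseudocount and 0 with 0.1 RPM, in edgeR with totals, in edgeR with TMM and with the filter, while 563, 326, 295, 293 and 253 had an unadjusted p below 0.05. By code it called 286 and then 0, 0, 0 and 1, with 968, 655, 592, 544 and 456 at an unadjusted p below 0.05. TMM factors moved the median log2 difference of all transcripts by 0.12 in the SC pair and between the KO libraries, and scaling to the listed sum moved the latter by 0.11, with the higher share of its calls going from 36.1% to 49.0% and 48.6%. The cause was not tested.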
